A study of Mus musculus with 13 samples.

Results

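Among the 7 sciatic nerve arrays from heterozygous db/+ mice, samples 101, 103, 104 and 106 held high levels of sensory neuron transcripts, whereas samples 105, 404 and 407 did not. These 7 of the 13 arrays of the study were divided into 4 neuron-high arrays (101, 103, 104 and 106) and 3 neuron-low arrays (105, 404 and 407) by those measured transcripts, so every gene value of the contrast between them is a description and carries no test. The labels give all 13 samples as sciatic nerve of BKS mice aged 24 weeks, in 2 genotypes. The db allele is a mutation of Lepr, which encodes the receptor for the satiety hormone leptin. Mice with 1 copy (db/+) stay nondiabetic and serve as controls, while those with 2 copies (db/db) are a model of obesity and type 2 diabetes. The other 6 arrays were db/db (samples 110, 111, 112, 409, 410 and 411) and took no part in the division. Array 105 was the only neuron-low db/+ array with a number in the 100 series, since 404 and 407 belong to the 400 series. What the numbers mark, and whether each array came from a separate animal, the labels do not state, so the spreads and p-values below measure differences between these samples.

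The cell bodies of sensory neurons lie in the dorsal root ganglia beside the spinal cord, and the sciatic nerve holds their axons. Each cell body is wrapped by satellite glia, and the roots of the ganglia are enclosed by the meninges and pass into the spinal cord, where oligodendrocytes take the place of Schwann cells as the myelinating cell. The nerve trunk itself holds mainly Schwann cells, fibroblasts, perineurial cells, vessels, fat and resident immune cells, and few transcripts of neuronal cell bodies.

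Values were log2 expression levels from RMA for 15437 genes, and array medians lay between 8.63 and 8.71. Levels are listed in the order 101, 103, 104 and 106, then 105, 404 and 407. Differences are neuron-high minus neuron-low means on the log2 scale. A gene was counted as apart when the values of the 2 sides did not overlap and their means differed by at least 1. Across genes, the neuron-high arrays correlated with each other at 0.973 to 0.989, the neuron-low arrays with each other at 0.974 to 0.979, and arrays of opposite sides at 0.921 to 0.955, with 0 identical pairs. The neuron-low db/+ arrays correlated with the db/db arrays at 0.946 to 0.970, and the neuron-high arrays did so at 0.894 to 0.934. These correlations describe arrays that share probes and normalization and carry no test.

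Lepr, the mutated gene, read 6.78, 7.20, 7.24 and 7.34 in the neuron-high arrays and 8.04, 8.98 and 8.45 in the neuron-low arrays. The 6 db/db arrays lay between 5.85 and 6.56, below every db/+ array. Lepr therefore also differed between the db/+ sides, by -1.35, without overlap.

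The 5 markers that define the division were far apart. Avil, which encodes the actin regulator advillin of peripheral sensory neurons, read 12.48, 12.22, 12.04 and 12.15 against 8.03, 7.98 and 7.96, a difference of 4.23. Calcb, which encodes a calcitonin gene-related peptide, read 12.80, 12.76, 12.11 and 12.18 against 4.16, 6.76 and 5.46, a 128-fold difference of the log2 means. Isl1, a transcription factor of sensory neurons, read 10.95, 10.67, 10.42 and 10.45 against 6.16, 5.63 and 6.76. The 2 sides did not overlap for any of these genes, and array 101 was the highest for each. Scn10a, the voltage-gated sodium channel Nav1.8 of nociceptors, read 11.30, 10.78, 9.997 and 10.51 against 4.39, 5.70 and 6.46. Tubb3, a neuronal tubulin, read 13.44, 13.25, 12.89 and 13.12 against 9.50, 7.75 and 8.21, with array 105 the highest of its side. The db/db means of Avil, Calcb, Isl1, Scn10a and Tubb3 were 7.06, 5.57, 4.78, 5.23 and 6.39, each nearer to the neuron-low than to the neuron-high mean of its gene. In bulk RNA of this kind, fewer cells of a type and less RNA per cell cannot be told apart.

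**Figure D1:**
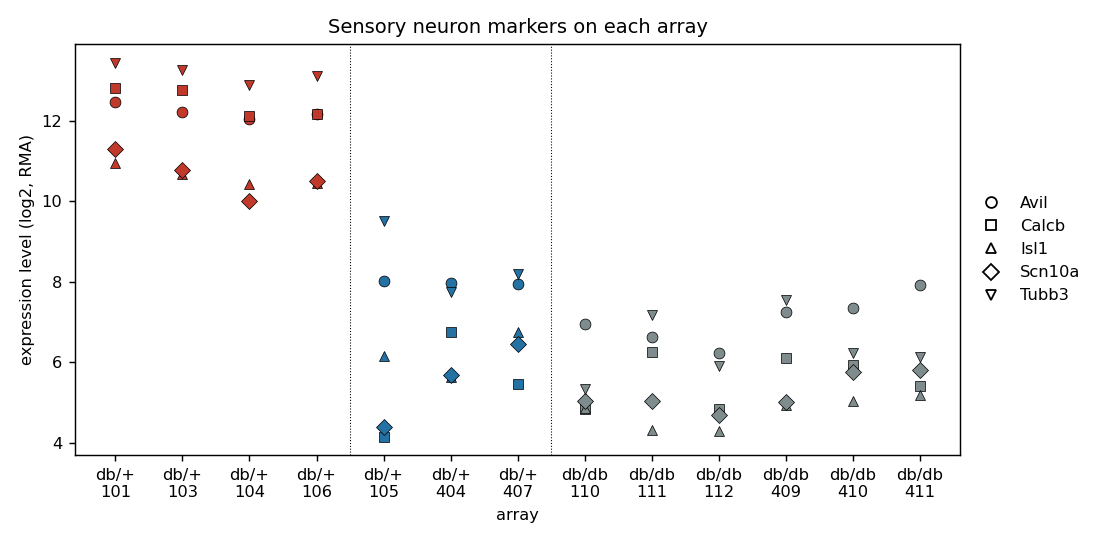
Level (log2, RMA) of the sensory neuron markers Avil, Calcb, Isl1, Scn10a and Tubb3 on each array, with neuron-high db/+ arrays in red, neuron-low db/+ arrays in blue and db/db arrays in grey. Each red point lies above every blue and grey point of the same gene, and Calcb spans 4.16 to 12.80 within db/+.

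Over all genes, 910 of 15437 (5.89%) were apart and higher in the neuron-high arrays, and 326 (2.11%) were apart and lower, together 8.01%. Since these genes come from the contrast that made the division, the counts describe its size and nothing further. The 910 higher genes had a median difference of 1.98, 445 of them differed by 2 or more, and 95 by 4 or more, up to 7.09 for Zic1. The 326 lower genes had a median of -1.19, and 1 of them, Mpo, passed 2. At the threshold, Impdh1 lay just inside at 1.0013 and Abcg4 just outside at 0.9989. Without regard to size, 1868 genes (12.1%) were higher without overlap and 3248 (21.0%) were lower without overlap, together 33.1%, and the median difference of all genes was -0.14. Many small negative differences thus stood beside fewer large positive ones, on arrays that RMA scales to a common distribution.

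**Figure D2:**
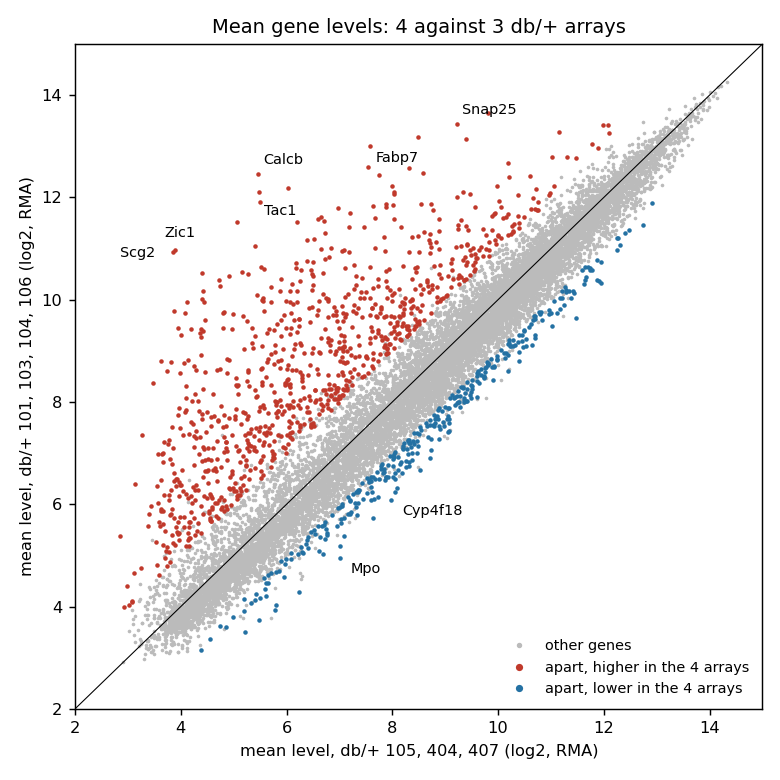
Mean level of each gene (log2, RMA) in the 3 neuron-low db/+ arrays (x axis) and in the 4 neuron-high db/+ arrays (y axis), with genes apart by at least 1 in red (910 higher) and blue (326 lower) and the line of equal levels in black. Higher genes spread far above the line, up to 7.09 for Zic1, while lower genes keep close to it, down to -2.06 for Mpo.

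The 12 greatest positive differences belonged to Zic1, Scg2, Calcb, Tac1, Synpr, Scn11a, Myt1, Slc17a6, Grik1, Vgf, Adcyap1 and Tafa2. Of these, Scg2, a granin of dense core vesicles, read 11.22, 11.24, 10.41 and 10.86 against 3.52, 4.02 and 4.02, a 135-fold difference of the log2 means. Tac1, the precursor of substance P, read 12.37, 12.18, 11.83 and 12.03 against 3.54, 6.34 and 6.55. Zic1, a transcription factor of the dorsal neural tube and of the meninges, read 10.44, 10.59, 11.53 and 11.36 against 2.96, 4.22 and 4.50. Unlike Scg2 and Tac1, Zic1 was highest in arrays 104 and 106. Its levels followed the meningeal genes described further on.

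Promoters of 4 of the named genes are printed because they belong to the greatest differences, and because Scn10a and Scn11a are direct neighbours on the genome. They are RefSeq sequences of GRCm38.p6, 250 bases before to 50 after the start, on the minus strand at chr1:79439977-79440276 (Scg2), chr9:91365719-91366018 (Zic1), chr9:119718983-119719282 (Scn10a) and chr9:119825407-119825706 (Scn11a). Capitals mark the cAMP response element TGACGTCA, which the activity-regulated factor CREB binds and which reads alike on both strands.
Scg2: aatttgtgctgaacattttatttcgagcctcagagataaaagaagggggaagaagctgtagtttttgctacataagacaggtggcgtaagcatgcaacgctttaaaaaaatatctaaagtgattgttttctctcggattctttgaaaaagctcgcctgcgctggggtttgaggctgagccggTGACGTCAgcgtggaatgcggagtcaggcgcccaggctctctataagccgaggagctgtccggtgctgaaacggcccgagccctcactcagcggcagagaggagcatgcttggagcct
Zic1: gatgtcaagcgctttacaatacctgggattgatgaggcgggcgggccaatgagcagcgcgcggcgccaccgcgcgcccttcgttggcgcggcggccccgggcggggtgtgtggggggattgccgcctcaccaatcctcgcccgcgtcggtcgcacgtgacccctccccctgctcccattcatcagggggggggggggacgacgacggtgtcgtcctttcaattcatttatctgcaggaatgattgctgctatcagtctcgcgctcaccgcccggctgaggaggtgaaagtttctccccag
Scn10a: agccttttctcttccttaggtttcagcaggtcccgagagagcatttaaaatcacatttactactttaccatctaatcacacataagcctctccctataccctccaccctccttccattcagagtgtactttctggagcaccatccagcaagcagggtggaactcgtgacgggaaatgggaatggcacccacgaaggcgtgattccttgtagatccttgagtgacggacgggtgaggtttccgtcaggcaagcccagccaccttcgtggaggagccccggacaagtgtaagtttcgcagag
Scn11a: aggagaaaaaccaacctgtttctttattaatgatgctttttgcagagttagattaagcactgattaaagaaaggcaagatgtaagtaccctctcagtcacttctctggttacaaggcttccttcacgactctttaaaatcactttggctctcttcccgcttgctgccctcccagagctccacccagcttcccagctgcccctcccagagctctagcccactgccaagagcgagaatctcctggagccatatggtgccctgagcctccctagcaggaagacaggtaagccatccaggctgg
In the Scg2 promoter the element began 68 bases before the start, and the other 3 windows did not hold these letters. TGACGTCA occurred in 1.79% of all 32851 promoters, in 2.69% of those of genes on the array and in 2.91% of those of the 910 higher genes. A match of letters is not measured binding. Scn10a and Scn11a, both sodium channels of nociceptors, were both apart, by 5.13 and 6.43. The neighbour of Scn11a on its other side, Wdr48, differed by -0.22. Zic4, the neighbour of Zic1, lay between 3.81 and 4.67 on all 7 arrays and differed by 0.39.

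Peptidergic nociceptor genes were apart as a group. All 9 measured members were higher without overlap and by more than 1, against 5.89% of all genes. Their median was 3.11, against -0.14 for all genes. Adcyap1, the precursor of the neuropeptide PACAP, read 10.72, 10.11, 9.34 and 10.55 against 4.08, 4.72 and 4.46. Scn9a, the sodium channel Nav1.7 that sets pain thresholds, read 10.38, 10.15, 9.84 and 9.68 against 4.36, 4.53 and 4.31. Trpa1, an irritant receptor, differed by 3.11, and Gal, a neuropeptide induced by nerve injury, by 3.74. Smr2 split the neuron-high arrays themselves, at 7.55 and 8.16 in arrays 101 and 103 but 4.88 and 5.28 in arrays 104 and 106.

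Genes of nonpeptidergic nociceptors and itch neurons were apart and higher in 7 of 11, against 5.89% of all genes, with a median of 1.51. Scn11a, the sodium channel Nav1.9, read 12.11, 11.83, 11.94 and 11.80 against 4.87, 6.38 and 5.22. P2rx3, the ATP-gated channel of small sensory neurons, read 10.34, 9.96, 9.40 and 9.41 against 5.15, 5.97 and 5.58. Mrgpra3, a receptor of itch neurons, differed by 3.23 and Nppb, the peptide of itch signalling, by 1.74. Hrh1, a histamine receptor, ran the other way, lower by -0.55 without overlap.

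Genes of low-threshold C fibres and cold receptors were apart and higher in 2 of 7, against 5.89% of all genes. Their median was 0.12. Tafa4, a secreted protein of C low-threshold mechanoreceptors, read 10.23, 9.75, 9.70 and 9.25 against 3.64, 4.51 and 4.10. Th, tyrosine hydroxylase, which marks the same fibres in ganglia, read 9.02, 7.97, 7.54 and 7.16 against 4.23, 4.89 and 5.16. Trpm8, the cold and menthol receptor, lay between 4.16 and 4.52 on all 7 arrays and Piezo2, a touch channel, between 5.71 and 6.20. A list that carried both high and flat members on the same arrays thus had a median near that of all genes.

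Large myelinated afferent and proprioceptor genes were apart and higher in 14 of 17, against 5.89% of all genes, with a median of 3.35. Cntnap2, an adhesion protein of the juxtaparanode, read 10.39, 10.13, 9.66 and 9.77 against 6.07, 5.72 and 4.81. Slc17a7, a vesicular glutamate transporter, differed by 3.89 and Scn1a, a sodium channel of large afferents, by 3.68. Calb1, a calcium-binding protein, read 10.48, 9.03, 9.26 and 8.97 against 6.05, 4.74 and 4.11. Pvalb, a calcium-binding protein shared by proprioceptors and fast muscle, overlapped, at 13.54, 12.10, 11.77 and 12.17 against 10.04, 10.43 and 13.10. The high Pvalb of array 407 came with a skeletal muscle list mean of 10.48 on that array, against 7.73 on array 105, and the part of muscle RNA in that level was not tested.

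Sensory neuron transcription factors were less uniform, with 4 of 16 apart and higher, against 5.89% of all genes, and a median of 0.33. Pou4f1, which specifies somatosensory neurons, read 9.98, 9.59, 8.69 and 9.13 against 4.38, 4.31 and 4.39. Isl2, a LIM homeodomain factor, differed by 4.78, Myt1, a zinc finger factor of neurons, by 6.15, and Myt1l by 2.47. Runx1 and Shox2, which mark subtypes of sensory neurons in development, lay lower in the neuron-high arrays, by -0.44 and -0.67. Ebf1, which fibroblasts and adipocytes also express, differed by -0.15.

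Of 10 motor and autonomic neuron genes 2 were apart and higher, Chodl by 1.98 and Npy by 1.77, against 5.89% of all genes. The list median was -0.14. Chodl, a marker of fast motor neurons, read 7.52, 6.30, 6.17 and 6.57 against 4.51, 4.85 and 4.63. Slc18a3, the vesicular acetylcholine transporter of motor neurons, lay between 3.39 and 4.27 on all 7 arrays. Dbh, which makes noradrenaline in sympathetic neurons, lay between 3.84 and 4.27, Phox2a between 3.90 and 4.53, and Lhx3 between 4.06 and 4.49. Slc6a2, the noradrenaline transporter of sympathetic neurons, lay between 6.94 and 8.01 and was lower in the neuron-high arrays by -0.53, with overlap. Slc5a7, the choline transporter, lay between 3.88 and 4.23 on the db/+ arrays and between 7.49 and 8.22 on the db/db arrays, where the 5 markers of the division were low.

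General neuronal functions followed the sensory genes. Of 20 general neuronal genes 14 were apart and higher, against 5.89% of all genes, with a median of 1.78. Elavl2, an RNA-binding protein, read 10.99, 10.62, 10.11 and 10.14 against 5.23, 4.69 and 4.82. Snap25, a protein of vesicle fusion, read 13.56, 13.49, 13.34 and 13.33 against 11.28, 8.71 and 7.68. Uchl1, a deubiquitinase known as PGP9.5, differed by 1.43 and kept levels of 11.73 to 12.40 in the neuron-low arrays. Thy1 and Nsg1 overlapped, at 0.22 and 0.00.

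Synaptic vesicle genes were apart and higher in 16 of 19 (median 3.26), against 5.89% of all genes. Genes of neuropeptide processing and dense core granules were so in 9 of 11 (median 3.71). Snap91, a clathrin adaptor of vesicle recycling, read 11.96, 11.64, 11.21 and 11.35 against 7.65, 6.62 and 5.83. Vgf, a neurotrophin-induced secretory protein, read 10.39, 10.72, 8.61 and 10.08 against 4.37, 3.91 and 4.05. Resp18, a neuroendocrine granule protein, differed by 4.98, and the proprotein convertase Pcsk1 by 3.14. The processing enzymes Cpe and Pam, which other secretory cells also use, differed by 0.14 and 0.34.

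Axonal cytoskeleton and transport genes were apart and higher in 11 of 14 (median 2.09), against 5.89% of all genes. All 14 were higher without overlap, against 12.1% of all genes. Prph, the intermediate filament peripherin, read 12.76, 12.55, 12.12 and 12.45 against 8.53, 9.16 and 8.05. Dync1i1, a dynein intermediate chain, differed by 4.02 and Map7d2, a microtubule-binding protein, by 4.19. The neurofilament subunits Nefl, Nefm and Nefh were also apart, by 3.83, 4.04 and 4.25.

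Channels and receptors of excitability were split between high and flat members. Of the sodium and calcium channel genes 6 of 12 were apart and higher (median 1.02), against 5.89% of all genes. For potassium channel genes the count was 12 of 21 (median 1.11) and for transmitter receptors 12 of 18 (median 1.71). Kcnip4, a subunit of A-type potassium channels, read 10.33, 9.99, 9.53 and 9.21 against 4.38, 4.77 and 5.29. Grik1, the kainate receptor subunit of small sensory neurons, read 10.43, 9.80, 9.65 and 9.22 against 3.45, 4.12 and 4.06. Htr3a, a serotonin-gated channel, read 9.96, 9.99, 9.05 and 9.39 against 4.21, 4.78 and 4.36. Cacna2d3, a calcium channel subunit, differed by 3.38. Oprd1 and Chrna7 stayed between 4.05 and 4.72 on all 7 arrays.

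**Figure D3:**
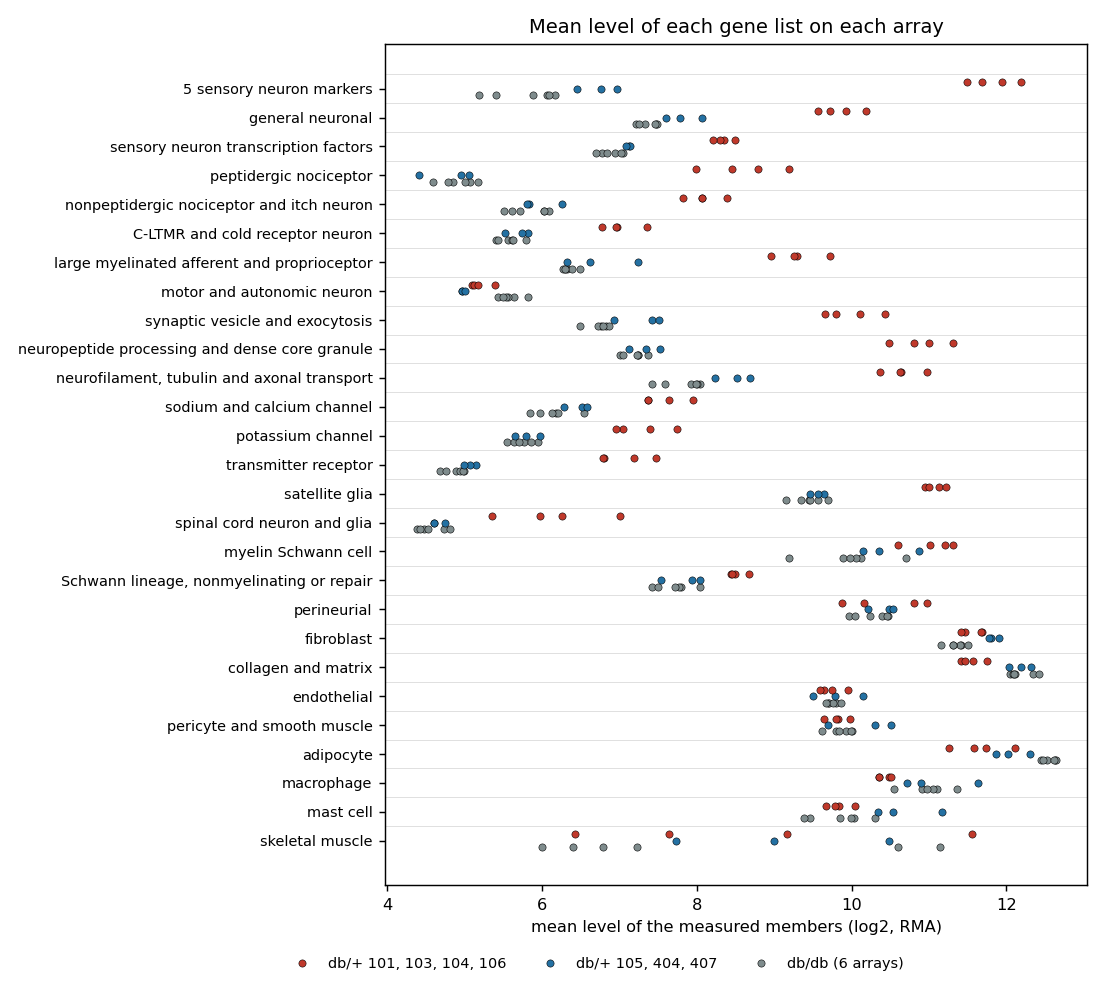
Mean level of the measured members of each gene list (log2, RMA) on each array, with neuron-high db/+ arrays in red, neuron-low db/+ arrays in blue and db/db arrays in grey. Neuronal lists other than motor and autonomic neuron place the red points above the blue and grey ones. On the motor and autonomic neuron list the grey points, at 5.44 to 5.82, lie above the red ones, at 5.10 to 5.39. Red points of the collagen, adipocyte, macrophage and mast cell lists lie lower or mixed. Skeletal muscle spreads from 6.43 to 11.56 among the red points alone.

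Satellite glia genes were apart and higher in 5 of 11, against 5.89% of all genes, with a median of 0.10. Fabp7, a fatty acid-binding protein of satellite glia, read 12.79, 12.48, 12.62 and 12.49 against 8.24, 7.44 and 6.93. The db/db arrays lay at 7.80 to 10.59 for Fabp7, all below the neuron-high arrays, with array 411 within the range of the neuron-low arrays and the db/db mean of 9.31 nearer to the neuron-low mean of 7.54. Kcnj10, the potassium channel Kir4.1 of satellite glia, read 9.18, 9.62, 10.17 and 10.41 against 6.66, 6.28 and 6.33. Aldoc differed by 3.95, Fbxo2 by 3.33 and Ptn by 1.64. Glul, Slc1a3 and Gja1, which Schwann cells, fibroblasts or perineurial cells also express, differed by -0.05, -0.05 and -0.04.

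The neuron-high arrays also carried transcripts of central nervous system glia. Of 8 spinal cord genes 4 were apart and higher, against 5.89% of all genes, with a median of 1.24. Mog, a myelin protein made by oligodendrocytes and not by Schwann cells, read 7.37, 8.36, 9.24 and 10.04 against 3.95, 4.08 and 4.15, with db/db arrays at 3.64 to 4.22. Aqp4, the water channel of astrocytes, read 4.74, 5.24, 6.46 and 8.04 against 3.72 to 4.66. Mobp, a second oligodendrocyte myelin protein, differed by 2.15. Slc6a5, the glycine transporter of spinal interneurons, did not exceed 4.56 on any of the 7 arrays, and Olig2, a factor of the oligodendrocyte lineage, overlapped.

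After Mog, Zic1, Zic2 and Ptgds had been seen, lists for oligodendrocytes, astrocytes and leptomeninges, the inner meningeal layers, were added. Their counts are therefore descriptions chosen with these values known. Oligodendrocyte genes were apart and higher in 8 of 15 (median 1.71), against 5.89% of all genes. Astrocyte genes were so in 6 of 12 (median 1.27) and leptomeningeal genes in 9 of 18 (median 1.13). Ermn, an oligodendrocyte cytoskeletal protein, read 6.96, 8.36, 9.33 and 9.76 against 3.42, 3.90 and 3.88. Mlc1, an astrocyte membrane protein, read 9.08, 9.30, 9.78 and 10.72 against 4.44, 5.17 and 5.33. Ptgds, the prostaglandin D synthase made by the meninges and by oligodendrocytes, read 12.64, 12.69, 13.50 and 13.21 against 7.19, 7.89 and 7.63. Zic2 read 8.99, 9.11, 10.96 and 10.79 against 4.27, 4.57 and 4.44. Foxc1, Foxc2 and Foxd1, transcription factors of meningeal and other mesenchyme, did not separate the sides.

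The high level of sensory neuron genes in the neuron-high arrays was set by the division and is no separate evidence of a source. Several genes of the satellite glia list were also high in the neuron-high arrays. These arrays also held several genes of the oligodendrocyte, astrocyte and leptomeningeal lists at higher levels, and the tissue source of those transcripts was not tested. The satellite glia list mean rose from 10.95 in array 101 to 11.22 in array 106. Kcnj10 and Aldoc were highest in array 106, as was Mog, whereas Fabp7 was highest in array 101. Whether the high genes of the satellite glia list came from satellite glia or from astrocytes was not tested. In the neuron-low arrays the list means were 6.45 to 6.97 for the 5 sensory markers, 5.99 to 6.09 for oligodendrocytes, 6.70 to 6.92 for astrocytes and 7.29 to 7.63 for leptomeninges. The labels give sciatic nerve for both sides, and how far along the nerve each sample reached was not stated.

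The neuron-high arrays differed from one another along these lines. Sensory neuron genes were highest in array 101, which gave the highest level for 659 of the 910 higher genes, and 548 of the 910 read higher in both 101 and 103 than in either 104 or 106, against 20.6% of all genes. Leptomeningeal genes ran the other way. Each of the 18 was higher in both 104 and 106 than in either 101 or 103, against 22.5% of all genes, and the list means were 8.80, 8.74, 10.05 and 9.81. The oligodendrocyte list means were 7.09, 7.64, 8.06 and 8.58, highest in array 106. Perineurial genes were also higher in both 104 and 106 in 10 of 10, and myelin Schwann cell genes in 15 of 17. Skeletal muscle list means were 11.56, 9.17, 7.64 and 6.43, in the opposite order.

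Over all genes, 63 were at least 1 higher in both 101 and 103 than in either 104 or 106, and 59 the reverse. The former were led by sarcomere genes, among them Myh2, a fast myosin, at 11.77 and 11.22 against 5.72 and 5.87. The latter included Slc38a5, a glutamine transporter, at 8.08 and 7.89 in 104 and 106 against 4.27 and 5.63 in 101 and 103, and Gjb2, a gap junction protein, at 12.11 and 11.88 against 10.28 and 10.25. Slc38a5 read 3.81, 4.30 and 4.37 in the neuron-low arrays. These genes were named after their values were seen.

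**Figure D4:**
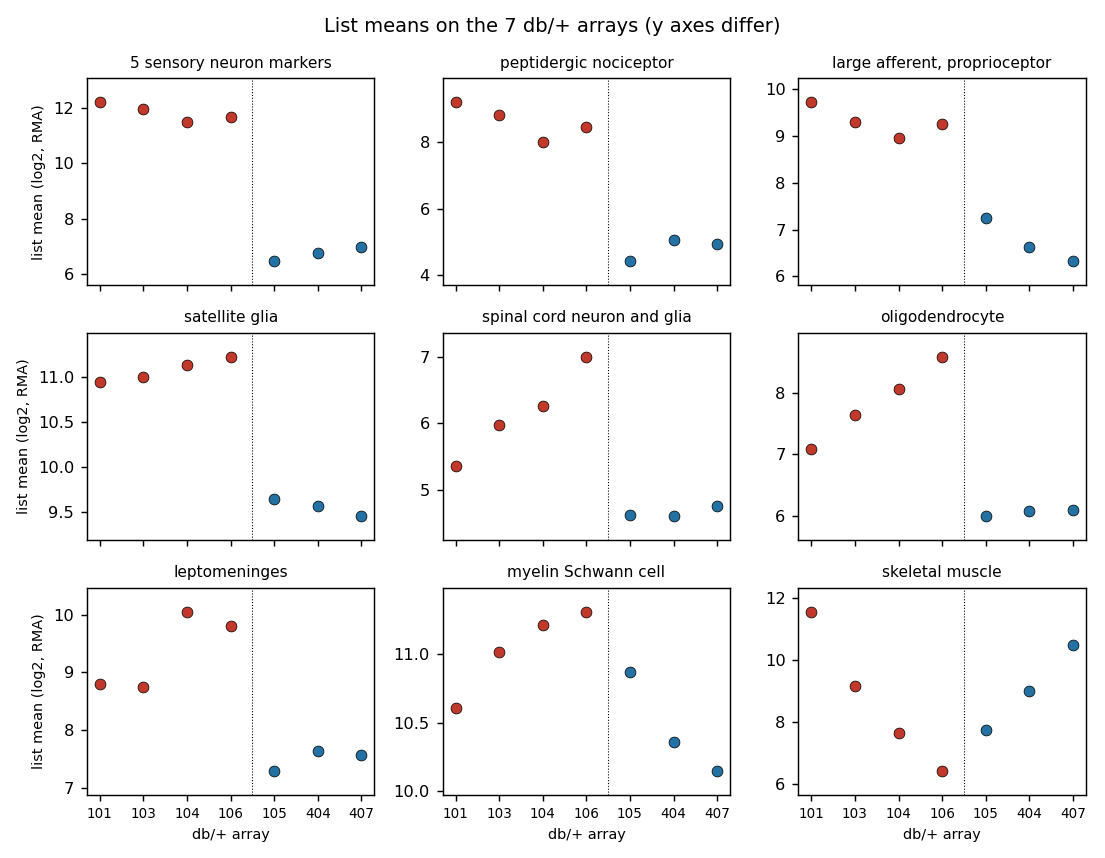
Mean level (log2, RMA) of 9 gene lists on each db/+ array, neuron-high in red and neuron-low in blue, with a y axis of its own in each panel. Array 101 is highest for the sensory neuron and muscle lists among the red points, 104 and 106 are highest for leptomeninges, and 106 is highest for oligodendrocyte genes at 8.58.

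Few genes of the nerve sheath and trunk were apart. Of 17 myelin Schwann cell genes 0 were apart, against 8.01% of all genes, a share at which so short a list holds few. Their median was 0.57, against -0.14 for all genes. All 17 had a higher mean in the neuron-high arrays, against 36.5% of all genes. Mag, a myelin adhesion protein shared with oligodendrocytes, read 8.36, 9.09, 9.45 and 9.99 against 8.81, 8.11 and 7.67, and Mbp, the myelin basic protein, 13.18, 13.41, 13.43 and 13.46 against 13.21, 13.25 and 13.03. Both overlapped, and Pmp22 and Egr2 differed by 0.25 and 0.66. Of 14 genes of the Schwann lineage and nonmyelinating or repair Schwann cells, 3 were apart and higher (median 0.56), against 5.89% of all genes. All 3 are also expressed by neurons or satellite glia. These were Bdnf, a neurotrophin, at 3.84, L1cam, an adhesion molecule, at 2.11 and Sox2 at 1.95. Sox10 and S100b, which mark Schwann cells and satellite glia alike, differed by 0.43 and 0.70. Of 10 perineurial genes 0 were apart, against 8.01% of all genes, with a median of -0.05. Cldn1 and Slc2a1, of the perineurial barrier, differed by -0.37 and -0.05.

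Connective tissue genes gave few differences of 1 or more. Of 19 fibroblast genes 2 were apart and lower in the neuron-high arrays (median -0.25), and of 19 collagen and matrix genes 1 (median -0.49), against 2.11% of all genes and a median of -0.14. Without regard to size, 9 fibroblast and 11 collagen and matrix genes were lower without overlap, against 21.0% of all genes. Clec3b, which encodes tetranectin, read 11.49, 11.48, 11.24 and 11.22 against 12.18, 12.21 and 13.04. Comp, a matrix protein of fibroblasts and tendon, read 11.92, 11.96, 11.70 and 11.97 against 12.91, 13.02 and 12.81. Thbs2, a matricellular protein, read 10.03, 10.83, 9.64 and 10.16 against 11.15, 11.29 and 11.17, and the db/db arrays reached 11.03 to 12.07. Dcn, Dpt and Col3a1, which fibroblasts express strongly, differed by -0.09, -0.15 and -0.14.

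Adipocyte, vessel and muscle lists held 0 genes apart, against 8.01% of all genes, a share at which lists this short hold few. Lower without overlap were 4 adipocyte, 2 brown adipocyte, 2 endothelial and 2 pericyte and smooth muscle genes, against 21.0% of all genes. The skeletal muscle list held 0, and 1 pericyte and smooth muscle gene was higher without overlap, against 12.1% of all genes. The medians were -0.37 for 14 adipocyte genes, -0.40 for 8 brown adipocyte genes, 0.09 for 12 endothelial genes, -0.40 for 10 pericyte and smooth muscle genes and -0.40 for 16 skeletal muscle genes. Adipoq, the adipocyte hormone adiponectin, read 13.26, 13.55, 13.29 and 13.47 against 13.56, 13.76 and 13.63. Ckm, the creatine kinase of muscle, read 9.78, 7.27, 6.36 and 5.03 against 6.22, 7.37 and 10.88, so muscle transcripts varied within each side more than between them. Fat transcripts were present on both sides, and their db/db list means of 12.44 to 12.63 lay above all 7 db/+ arrays, at 11.25 to 12.31.

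Few immune genes were apart. The neuron-high mean was the higher one for 36.5% of all genes, so lower values were the rule across the array. It was the higher one for 1 of 14 macrophage and 0 of 7 mast cell genes. Without regard to size, 6 macrophage and 2 mast cell genes were lower without overlap, against 21.0% of all genes. Macrophage list means were 10.35 to 10.51 in the neuron-high and 10.71 to 11.63 in the neuron-low arrays. Mast cell list means were 9.67 to 10.04 and 10.35 to 11.17. Of 14 macrophage genes 1 was apart and lower (median -0.72), against 2.11% of all genes, of 7 mast cell genes 1 (median -0.70), and of the lymphocyte and MHC class II genes 0 of 9 (median -0.05) and 0 of 7 (median -0.34). Cd14, the lipopolysaccharide co-receptor, read 10.08, 10.16, 10.20 and 10.16 against 10.81, 11.39 and 11.66. Hdc, the histamine-forming enzyme of mast cells, read 6.99, 7.86, 7.53 and 7.24 against 8.14, 9.40 and 9.62. Macrophage genes were highest in array 407, with a list mean of 11.63 against 10.89 and 10.71 in arrays 105 and 404, and without 407 the list median was -0.38.

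The 12 greatest negative differences were Mpo, Ugt3a2, B430306N03Rik, Cyp4f18, Il6, Wnt2, Mfap4, Gm6377, Loxl2, Slc16a3, Rab44 and Clec4e. Mpo, the myeloperoxidase of neutrophil granules, read 5.07, 4.86, 4.66 and 5.25 against 6.36, 7.13 and 7.55. Il6, an inflammatory cytokine, read 4.02, 3.58, 3.81 and 4.29 against 6.64, 5.37 and 5.36. Clec4e, a receptor of activated macrophages, read 3.96, 4.04, 4.07 and 4.06 against 5.21, 5.60 and 6.59. Loxl2, an enzyme that crosslinks collagen, read 6.47, 5.86, 6.25 and 6.34 against 7.70, 7.94 and 8.51. Wnt2, a secreted signalling protein, read 7.05, 6.43, 6.45 and 6.71 against 8.38, 8.41 and 8.77, while its db/db mean was 6.61, at the level of the neuron-high side. For Ugt3a2, the db/db mean of 7.42 lay beyond the neuron-low mean of 6.23.

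Genes of cell state gave fewer differences of 1 or more. Of the 17 cell cycle, 12 immediate early and 15 circadian clock genes 0 were apart, with medians of -0.60, -0.35 and -0.34. Of all genes, 8.01% were apart in either direction. Clock genes varied within the neuron-low side, where Arntl, the activator BMAL1, read 10.32, 7.15 and 7.48, and Dbp, an output gene in the opposite phase, read 10.08, 12.41 and 11.64. In the neuron-high arrays Arntl read 8.66, 7.59, 10.06 and 9.29, and Dbp 10.99, 11.41, 9.54 and 10.79. Among 16 oxidative phosphorylation genes Cycs, cytochrome c, was apart at 1.13 (median 0.02). Among 9 cholesterol synthesis genes Sqle, squalene epoxidase, was apart at 1.21 (median 0.73). Apart and higher were 5.89% of all genes. Without regard to size, 6 of the 9 cholesterol synthesis genes were higher without overlap, against 12.1% of all genes. The neuron-high mean was the higher one for 8 of the 9, against 36.5% of all genes. Hspa1a, a heat shock protein, was lower at -1.11 among 12 genes of endoplasmic reticulum stress and heat shock (median -0.18). Apart and lower were 2.11% of all genes. Glycolysis (8 genes, median 0.29), fatty acid synthesis (10 genes, median 0.08) and erythroid genes (2 genes, median 0.23) had 0 apart. The erythroid median turned to -0.28 without array 103, -0.32 without 106 and -0.29 without 105, and that of fatty acid synthesis to -0.14 without 104. The sex-linked genes Eif2s3y and Uty, both on the Y chromosome, differed by -0.17 and -0.34, and Eif2s3y lay between 11.45 and 12.06 on all 13 arrays.

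Hox genes record position along the body axis, and most did not separate the sides. Of 18 genes of groups 1 to 8, 5 were apart and higher (median 0.34), and of 18 genes of groups 9 to 13 and of limb patterning, 1 was (median -0.22), against 5.89% of all genes. The difference between these lists was not tested. Hoxd1, which is expressed in nociceptors, read 9.40, 8.79, 8.30 and 8.62 against 3.65, 3.80 and 4.02. Hoxb5 read 10.43, 10.24, 9.75 and 10.15 against 6.64, 8.52 and 7.33, Hoxb6 differed by 2.24, Hoxb3 by 1.62 and Hoxb8 by 1.38. Hoxb9 read 9.16, 9.09, 9.33 and 9.02 against 8.06, 7.15 and 7.52. Hoxd10, a lumbar gene, overlapped between array 106 at 9.25 and array 404 at 9.34. The hindlimb genes Pitx1 and Tbx4 differed by -0.58 and -0.23, and the forelimb gene Tbx5 by -0.45.

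The quality readings of the arrays did not sort by side. The signal of the actin control probes was higher at the 3' end than at the 5' end by 0.96 to 1.40 in the neuron-high arrays and by 0.40 to 1.14 in the neuron-low arrays. Array 407, with the smallest value, had the highest macrophage and muscle list means of its side. The part of RNA quality in these levels was not tested.

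Array 105 shared the low neuropeptides of its side but held more transcripts of large axons. Nefl, the light neurofilament, read 12.03 in array 105 against 9.37 and 8.04 in arrays 404 and 407, Nefm 9.85 against 7.57 and 6.68, and Nefh 9.64 against 8.33 and 6.99. In contrast, Tac1 read 3.54 against 6.34 and 6.55, Calcb 4.16 against 6.76 and 5.46, and Scg2 3.52 against 4.02 and 4.02. Of the 17 large afferent genes 13 were higher in array 105 than in both 404 and 407, and of the 9 peptidergic genes 0 were. Over all genes, 34.7% were higher in 105 than in both and 35.6% were lower. For the 910 genes higher in the neuron-high arrays the numbers were 361 (39.7%) and 329 (36.2%), near the background. For the 326 lower genes they were 47 (14.4%) and 171 (52.5%). In that set array 105 thus lay below both 404 and 407, on the side toward the neuron-high arrays, more often than over all genes. Myelin Schwann cell genes were higher in 105 in 15 of 17, with a list mean of 10.87 against 10.36 and 10.15.

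**Figure D5:**
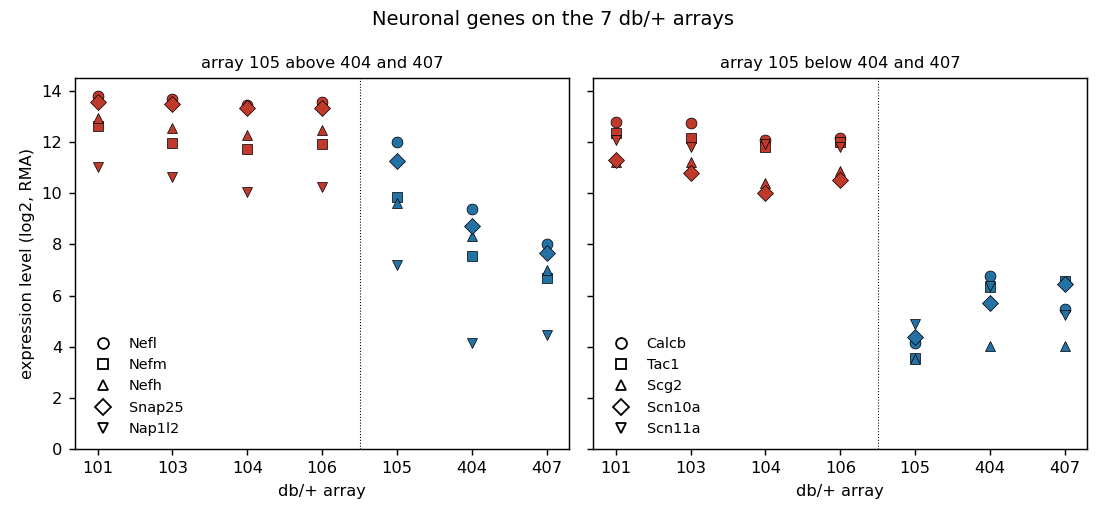
Levels (log2, RMA) of 10 neuronal genes on the 7 db/+ arrays, chosen after their values were seen, with array 105 above 404 and 407 on the left and below them on the right. Nefl reaches 12.03 in array 105 while Tac1 is at 3.54, and every blue point lies below the red points of its gene.

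Genes at the extremes of array 105 were mostly of other kinds. It was highest of all db/+ arrays for Tnc, the matrix protein tenascin C, at 11.09 against 6.44 to 8.18, and for the immediate early gene Fosb at 10.37 against 6.75 to 8.15. Mmp12, a macrophage elastase, read 8.90, 8.76, 8.66 and 10.29 in the neuron-high arrays and 11.91, 6.46 and 5.20 in arrays 105, 404 and 407. The db/db arrays lay at 12.20 to 13.35 for Mmp12. Rgs1 and F7 were also highest in 105 among db/+ arrays, at 9.89 and 7.45, and higher still in db/db, with means of 11.36 and 9.52. Khdc1a read 6.54 against 3.10 to 4.06. Besides Tac1, array 105 was lowest for Ttr, Nts, Actg2, Ceacam10 and Gkn3, at 4.11, 6.63, 4.39, 4.17 and 6.80. Nts, the neuropeptide neurotensin, read 11.81, 9.28, 10.79 and 10.60 in the neuron-high arrays and 8.84 and 10.74 in arrays 404 and 407.

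For other genes array 105 sat with the neuron-high arrays, which share its number series, and apart from 404 and 407. Named by the largest gap, Krt8, Hpd, Bmp4, Scaf1, Igfbp1 and Krt18 were higher in 404 and 407, and Nkx2-2, Crebrf, Fam160b2, Sox8, Sowahb and Gas2l3 were lower. Igfbp1, an insulin-like growth factor-binding protein, lay between 3.48 and 4.13 in the 5 arrays of the 100 series and read 5.99 and 5.35 in the 400 series. Fam160b2 read 11.90, 11.98, 12.07, 11.89 and 11.92 in the 100 series and 10.60 and 10.19 in the 400 series. Sox8, a glial transcription factor, read 8.84, 9.44, 10.07, 10.02 and 9.16 against 7.58 and 7.63. Neuron-low arrays 404 and 407 therefore differed from the neuron-high arrays in number series as well as in neuronal RNA. Array 105, neuron-low but of the 100 series, was the one db/+ array in which these could be seen apart.

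The db/db arrays, which were not used in the division, allowed a test of the number series. Between db/db arrays of the 400 series (409, 410 and 411) and of the 100 series (110, 111 and 112), limma with Benjamini-Hochberg adjustment called 232 genes higher (1.50%) and 139 lower (0.900%), together 2.40%, in the 400 series at an adjusted p of 0.05. The calls were fragile. Leaving out 110, 111, 409, 410 or 411 in turn left 0 calls by limma, with 3541, 2920, 3731, 2528 and 2865 genes at an unadjusted p under 0.05, while leaving out 112 left 110 higher and 90 lower. Among the called genes the largest differences were Ppbp, a platelet chemokine, at 2.69 ± 0.42 (SE, adjusted p = 0.045 by limma), and Ighg1, an immunoglobulin heavy chain, at -2.13 ± 0.37 (adjusted p = 0.049 by limma).

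Some genes by which 404 and 407 stood apart from array 105 and the neuron-high arrays differed in the same direction in this test. Scaf1 was higher in the 400 series of db/db by 1.33 ± 0.11 (SE, limma adjusted p = 0.033), and Igfbp1 by 1.78 ± 0.17 (limma adjusted p = 0.033). Fam160b2 differed by -1.21 ± 0.11 (limma adjusted p = 0.033), with db/db levels of 11.49, 11.36 and 11.45 in the 100 series and 10.12, 10.41 and 10.15 in the 400 series. Hoxa10, a gene of posterior identity noticed after the values were seen, read 11.54, 11.66, 11.78, 11.70 and 11.93 in the 100 series of db/+ and 10.92 and 11.01 in arrays 404 and 407, and differed by -0.87 between the db/db series (limma adjusted p = 0.033). Bmp4, Crebrf and Sox8 differed in the same direction without passing, with limma adjusted p of 0.070, 0.082 and 0.051. In 1158 genes, 404 and 407 were higher than the other 5 db/+ arrays, with array 105 within the range of the neuron-high arrays. Of these, 59 were called higher and 0 lower in the 400 series of db/db, against 1.50% and 0.900% of all genes. Of 730 that were lower by the same rule, 31 were called lower and 0 higher, against 0.900% and 1.50% of all genes. These db/+ genes were selected by their values, and the db/db arrays share no sample with that choice.

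Some genes that were apart in db/+ were called between the db/db number series. Of the 910 higher genes 19 were called higher and 4 lower in the 400 series, against 1.50% and 0.900% of all genes. Of the 326 lower genes 16 were called higher and 0 lower. By list, 2 of 9 peptidergic nociceptor genes and 2 of 16 sensory neuron transcription factors were called higher. The 5 markers and the general neuronal, nonpeptidergic, C fibre and large afferent lists held 0 calls. Scn9a read 3.70 ± 0.08 in the 100 series and 4.52 ± 0.16 in the 400 series (SD, n = 3 each; limma adjusted p = 0.038). Isl2 differed by 0.89 (limma adjusted p = 0.045), Pou4f1 by 0.84 (limma adjusted p = 0.049) and Adcyap1 by 0.69 (limma adjusted p = 0.048), each higher in the 400 series. Entpd3, an ectonucleotidase of sensory neurons, read 5.40, 5.20 and 5.80 in the 100 series and 7.85, 6.93 and 7.53 in the 400 series, a difference of 1.97 ± 0.27 (SE, limma adjusted p = 0.038). Its db/+ levels were 10.19, 9.26, 8.86 and 9.29 against 5.25, 5.62 and 6.40. Scn9a, Isl2, Pou4f1 and Adcyap1 stayed far below the neuron-high db/+ arrays in both db/db series. The calls carry the same dependence on individual db/db arrays. Series means of Scn9a, Pou4f1 and Adcyap1 in db/db were 3.70 to 4.66, near the low end of the arrays. Array minima were 2.66 to 2.89 in the 100 series of db/db and 1.75 to 2.02 in the 400 series. Whether these differences reflect sensory neuron RNA was not tested.

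Levels of the 6 db/db arrays can be set beside the db/+ sides as a description. For 793 of the 910 higher genes (87.1%) all 6 db/db arrays lay below the lowest neuron-high array, against 13.7% of all genes, and for 834 the db/db mean was nearer the neuron-low than the neuron-high mean. For 135 of the 326 lower genes (41.4%) all 6 db/db arrays lay above the highest neuron-high array, against 17.7% of all genes. Since these genes were selected by their levels in the same neuron-high arrays, both shares follow in large part from that selection, and nothing is read from them about db/db. Genes such as Wnt2 and Comp, with db/db means of 6.61 and 11.86, were low in db/db as in the neuron-high arrays. Npy, a neuropeptide, read 8.82, 6.90, 7.63 and 8.26 against 5.99, 6.38 and 6.02 in db/+, and 7.52 to 10.47 in db/db, where it exceeded the neuron-low side throughout. Comparisons of db/db with all 7 db/+ arrays thus contain the division described here, and its part in them was not tested.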

How the data were processed

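Total RNA from mouse sciatic nerve was amplified, biotin-labelled and hybridised to 13 Affymetrix arrays. The values are log2 expression levels that the authors normalized by RMA before they were deposited, per the submitters' processing notes. For the RMA version and the probe-set definitions, the notes name none (not given in the sources used here). Of 15479 probe sets, 42 array controls were left out and 15437 were used, 14801 with 1 gene symbol and 636 unnamed.

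The members and gene lists (42, and 3 added for leptomeninges, oligodendrocytes and astrocytes) were chosen with earlier results of these data known. For the 4 neuron-high and 3 neuron-low db/+ arrays, means, SDs and overlap of values were computed with no test. Genes were named by fixed size rules: Lepr, the 5 markers, the 12 greatest differences each way, up to 3 members a list, and the extremes of array 105. Other list members were named after their values were seen. The number series within db/db was tested with limma 3.58.1 in R 4.3.3 (lmFit, eBayes, Benjamini-Hochberg). Tested on simulated data with 200 changed genes, this fit recovered 58% of shifts of 1 and 84% of shifts of 2 on the log2 scale, with 5 false among 147 calls. The number of arrays limits the precision. Tables were handled in Python 3.11.15 with pandas 2.3.3. Promoters came from RefSeq (GRCm38.p6) and were held for 21 of 28 genes looked up.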

Additional observations from a re-analysis of the deposited data

Results flagged for a closer look

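In each value below, 1 array lay farther from its group than Dixon's 95% limit allows. Such gaps were found in 27 of 519 groups checked (5.20%), and chance alone flags about 1 in 20 groups.

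Within db/+, array 105 was highest for Fosb at 10.37, Tnc at 11.09, Khdc1a at 6.54, Rgs1 at 9.89, F7 at 7.45 and Uty at 7.31, and for the mean of the sex-linked genes at 9.55. It was lowest for Gkn3, a gene of arterial endothelium, at 6.80. Fosb, Tnc, Khdc1a, Rgs1, F7 and Gkn3 had been picked for the distance of array 105 from the other db/+ arrays. Array 407 was highest for the macrophage list mean at 11.63, and array 404 was lowest for Ighg1 at 3.35.

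Among the neuron-high arrays, 101 was highest for the cell cycle list mean at 7.28 and lowest for Hpd at 4.15. Array 106 was highest for Mmp12 at 10.29, and lowest for the immediate early list mean at 9.47 and for the smooth muscle actin Actg2 at 6.55.

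Within db/db, array 112 was lowest for Mpo at 4.73, Hoxb5 at 5.79, Hoxb9 at 6.53 and Hpd at 5.43. Array 110 was highest for Ugt3a2 at 9.0, Calb1 at 7.92 and Chodl at 7.43. Array 409 was highest for Il6 at 7.44 and Cycs at 6.08, and array 411 for Elavl4 at 5.52. Array 111 was lowest for Krt18 at 6.83 and highest for Gkn3 at 8.48.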

How the results depend on the processing

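With sides apart by 0.5 or more, 1405 genes were higher and 1661 lower in the neuron-high arrays, and with 2 or more, 445 and 1. Against array 105 alone, 1021 genes were higher and 512 lower. These held 797 of the 910 higher genes but only 171 of the 326 lower genes. With 101 and 103 alone as the neuron-high side 492 were lower, and with 104 and 106 alone 526, both settings chosen after seeing the data. Leaving out 1 db/+ array gave 900 to 1037 higher and 291 to 556 lower genes, with 556 lower without 105 and 492 without 404. Renewed quantile normalization gave 918 and 333, and centring 921 and 315.

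For the db/db number series, limma with an intensity trend called 530 higher and 344 lower, with trend and robust fitting 521 and 344, without the dimmest 25% of genes 419 and 300, and in a fit of all 13 arrays in 4 groups 18 and 9. Leaving out 1 db/db array gave 0 to 110 higher and 0 to 90 lower. Without both 112 and 411, added after seeing the data, limma called 0 and 0, with 3134 genes at an unadjusted p under 0.05. The causes were not tested.

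Of 540 alternative list medians 43 moved by more than the spread between arrays. The skeletal muscle median turned to 1.02 against array 105 alone, 0.30 without 106 and 0.33 without 407, and the circadian clock median to 0.31 against 105 alone. The fatty acid synthesis median turned to -0.15 against 105 alone, and the perineurial median to 0.16 and the erythroid median to -0.28 without 103. The endothelial median turned to -0.12 without 105, that of lymphocytes to 0.06 without 101 and that of oxidative phosphorylation to -0.03 without 105. No paired analysis was possible because the sides and the number series share no replicate numbers.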
